A study of Mus musculus with 6 samples.

Results

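The genes described here encode enzymes that add methyl groups to histones and DNA or take them off, and a few of their partners. They were chosen by a symbol pattern over the 17173 genes of the deposited gene table, which matched 65 genes. The pattern's own rule then removed 3 of them (Kdm5c, Kdm5d and Kdm6a), which left 62, made up of 41 histone methylation writers, 14 histone demethylases (erasers) and 7 DNA methylation genes. Several carry older symbols in the table: Mll1, Mll3 and Mll5 are now Kmt2a, Kmt2c and Kmt2e, Whsc1 and Whsc1l1 are Nsd2 and Nsd3, Setd8 is Kmt5a, Suv420h1 and Suv420h2 are Kmt5b and Kmt5c, and Prmt10 is Prmt9. Mll2 was read as Kmt2d, since the table holds the older symbol of Kmt2b, Wbp7, in a row of its own. Symbols are given below as the table has them.

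The RNA came from bone marrow of mice that model multiple myeloma, a plasma cell cancer, and was sequenced in 6 libraries. Of these, 3 carry the genotype label Che-1 silencing and the sample titles vkche, and 3 carry the genotype label control. All 6 share the source name VkCHE mice. The labels used here do not name an allele, the promoter that drives it, the way silencing was done, a strain or an age. Nor do they say that each library is from its own mouse. The p-values thus measure only how these libraries vary, which may be technical.

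Methyl groups on histone lysines and arginines are laid down by enzymes that use S-adenosylmethionine, most of them through a SET domain, and removed by flavin-dependent or JmjC-domain demethylases. Methylation of H3K4, H3K36 and H3K79 goes with active genes, and methylation of H3K9 and trimethylation of H4K20 with silent chromatin. In DNA, Dnmt3a and Dnmt3b set new cytosine methylation, Dnmt1 copies it at each round of replication, and the Tet enzymes oxidise it. In marrow these enzymes are known for their part in stem cell self-renewal and lineage choice, and mutations of Dnmt3a, Tet2 and the MLL genes are frequent in blood cancers.

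Levels are given on 2 scales. The spike-in scale is the authors' own, in normalized counts, that is reads divided by a size factor taken from synthetic ERCC RNAs added to each sample. Whether the spike-ins were added per cell is not stated in the labels. The relative scale sets the median log2 level of the tested genes equal in every library and so measures a gene against the median gene of its library. It is given below as the log2 level minus the mean of the 3 control libraries, so a value below 0 is a lower level than in the control libraries and not a level below that of the median gene. Differences are Che-1 silencing minus control, in log2 units, tested with limma across the 14621 genes whose mean was at least 10 normalized counts, with a threshold of 0.05 on the Benjamini-Hochberg adjusted p. Of the 62 genes, 61 were tested. Dnmt3l, a catalytically inactive partner of the de novo enzymes, was below the minimum, at 2.47, 2.4 and 6.42 normalized counts in libraries labelled Che-1 silencing and 3.51, 2.35 and 0.475 in the control libraries.

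Recovered gene reads numbered 14603238 to 25303914 in libraries labelled Che-1 silencing and 11489134 to 18084373 in the control libraries. Aatf, which encodes Che-1, was not lower in libraries labelled Che-1 silencing. It stood at 1986, 3808 and 1223 normalized counts there, against 896, 396 and 421 in the control libraries (spike-in log2 difference 1.98, SE 0.57, limma adjusted p = 0.00215, which became 0.0569 without control replicate 2 and 0.0576 without control replicate 3). The relative difference was 0.45 (SE 0.19, limma adjusted p = 0.143). On the spike-in scale 66.8% of all genes rose, with a median difference of 1.55. The targeted gene was thus not lower, as the label would have it. Each direction given refers to libraries as labelled, not to a loss of Aatf. All 4 genes past the threshold on the relative scale were Y-linked, with 0 reads in all libraries labelled Che-1 silencing and 1044 to 4151 in the control libraries, while the authors' deposited table gives Xist a mean of 68685 in libraries labelled Che-1 silencing and 5.64 in the control libraries. Sex and group therefore cannot be told apart. In RNA of bone marrow, fewer cells of a type and less RNA per cell cannot be told apart either. Che-1 silencing replicate 3 stood apart from replicates 1 and 2 (mean chi-square per gene 165 and 127, against 17.5 between those 2), and the relative calls gained without it are given below. Control replicate 1 stood apart from control replicates 2 and 3 (mean chi-square per gene 49.7 and 52.7, against 2.13 between those 2).

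Promoter sequence is shown for 3 genes that were high together in Che-1 silencing replicates 1 and 2, and for 1 that was low there. Each window is from RefSeq (build GRCm38.p6). It runs from 250 bases before an annotated start to 50 after it, and is written on the strand of the gene. Capitals mark 8-base sequences of the kind bound by E2F factors, which drive genes of DNA replication. The sequences searched were TTTCCCGC, TTTCGCGC, TTTGCCGC, TTTGGCGC and TTCCCGCC on both strands, a match to any of them counting, and the first and the last overlap in part.
Suv39h2, chr2:3474937-3475236, minus strand: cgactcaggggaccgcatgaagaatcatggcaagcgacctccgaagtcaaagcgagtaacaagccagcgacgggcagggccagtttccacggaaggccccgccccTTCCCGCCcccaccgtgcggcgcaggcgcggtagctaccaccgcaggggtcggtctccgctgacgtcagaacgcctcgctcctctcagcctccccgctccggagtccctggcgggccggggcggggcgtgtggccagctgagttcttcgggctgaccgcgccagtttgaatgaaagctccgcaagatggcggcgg
Suv39h1, chrX:8074312-8074611, minus strand: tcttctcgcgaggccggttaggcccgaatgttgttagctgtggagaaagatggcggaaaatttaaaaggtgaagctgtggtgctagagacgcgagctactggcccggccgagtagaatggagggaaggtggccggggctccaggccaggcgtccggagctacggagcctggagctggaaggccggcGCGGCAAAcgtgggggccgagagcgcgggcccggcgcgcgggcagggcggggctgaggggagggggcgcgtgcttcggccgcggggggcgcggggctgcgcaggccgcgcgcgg
Dnmt1, chr9:20952574-20952873, minus strand: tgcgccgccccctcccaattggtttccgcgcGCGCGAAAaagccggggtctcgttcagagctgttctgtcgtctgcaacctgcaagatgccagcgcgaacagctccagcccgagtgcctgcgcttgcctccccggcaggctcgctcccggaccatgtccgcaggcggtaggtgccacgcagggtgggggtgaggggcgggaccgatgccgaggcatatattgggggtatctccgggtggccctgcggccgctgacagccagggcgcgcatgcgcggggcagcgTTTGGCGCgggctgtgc
Tet1, chr10:62887275-62887574, minus strand: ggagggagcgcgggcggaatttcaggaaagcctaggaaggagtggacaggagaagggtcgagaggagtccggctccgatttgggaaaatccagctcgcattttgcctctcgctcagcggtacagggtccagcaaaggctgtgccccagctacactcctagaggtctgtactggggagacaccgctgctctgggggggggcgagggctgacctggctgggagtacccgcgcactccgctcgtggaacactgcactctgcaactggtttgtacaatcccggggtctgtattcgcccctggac
The capitals show TTCCCGCC in the Suv39h2 window, GCGGCAAA (TTTGCCGC on the other strand) in the Suv39h1 window, and GCGCGAAA (TTTCGCGC on the other strand) and TTTGGCGC in the Dnmt1 window. Dnmt1 has 3 windows in the table and Suv39h1 has 2. Of each, the 1 window that holds a match is shown, and the others hold 0. The Tet1 window holds 0 matches. Of the 62 genes, 48 had a window in the table, and 5 of the 48 (10.4%) held a match: Dnmt1, Prmt1, Suv39h1, Suv39h2 and Suv420h2. Over all RefSeq windows 4.46% of 27025 genes and 3.89% of 32851 windows held one. The counts do not tell which start was used in these libraries, and a match is a match of letters only. Of the 5 genes with a match, the relative difference was 1.07 for Dnmt1, 0.50 for Prmt1, 0.76 for Suv39h1, 1.35 for Suv39h2 and -0.30 for Suv420h2. Ehmt2, Kdm1a, Kdm4c and Smyd5, at 0.50, 0.50, 0.53 and 0.52, had windows without a match. Whsc1, Setd1b and Kdm6b had no window. The motif and the genes shown were chosen with the values below already known.

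Set against spike-in RNA, 42 of the 61 tested genes rose in libraries labelled Che-1 silencing and 0 fell. Of all 14621 genes tested, 66.8% rose and 0.746% fell, so the share of these genes that rose was close to that of all genes. In 41 genes each library labelled Che-1 silencing exceeded each control library, and in 0 it was the other way round, against 68.0% and 0.438% of all genes. Their median difference was 1.55, and that of all genes was also 1.55. By class, 27 of 41 writers, 13 of 14 erasers and 2 of 6 DNA methylation genes rose. The count rested on single libraries. It was 7 without control replicate 2, 10 without control replicate 3, 15 without Che-1 silencing replicate 1 and 19 without Che-1 silencing replicate 2, where 22.0%, 24.3%, 39.1% and 42.1% of all genes rose in the same order. With control replicates 2 and 3 summed into 1 sample it was 9, where 23.6% of all genes rose, and with limma on each gene's own spread it was 0, where 0.0% of all genes rose. Both settings were chosen after the data were seen. Without control replicate 1 it was 46, where 66.6% of all genes rose. Without Che-1 silencing replicate 3 it was 52, where 75.6% of all genes rose, and the 10 genes gained were Ash1l, Mll5, Suv420h1, Carm1, Whsc1l1, Tet3, Dot1l, Setmar, Setd1a and Setd4. The 7 genes that still rose without control replicate 2 were Suv39h2, Suv39h1, Whsc1, Dnmt1, Smyd5, Prmt6 and Kdm4c. Rises given below for other genes among the 61 ended without that library.

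**Figure D1:**
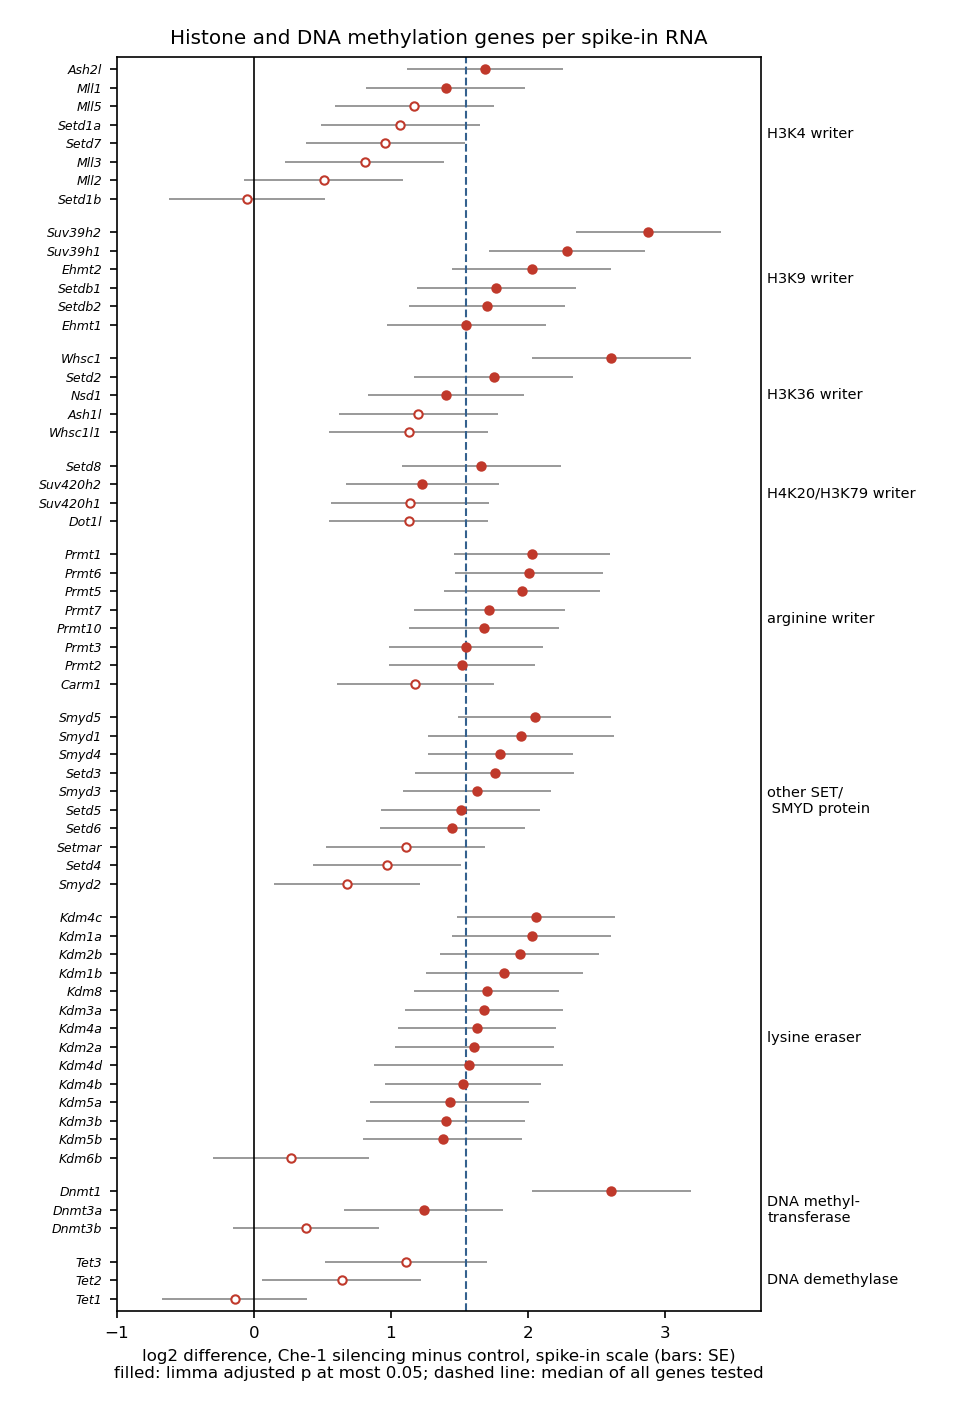
Log2 difference per spike-in RNA for the 61 tested genes (x axis, Che-1 silencing minus control, bars are SE), grouped by role and sorted by this spike-in difference within each role. Filled points passed the limma threshold, the dashed line is the median of all genes at 1.55, and the points run from -0.14 for Tet1 to 2.88 for Suv39h2.

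Relative to the median gene, none of the 61 passed: 0 rose and 0 fell, against 0.0% and 0.0274% of all genes. At an unadjusted p under 0.05, 6 were higher and 11 were lower, where 17.8% and 17.4% of all genes were. The edgeR test with TMM scaling also called 0 in either direction, and DESeq2 called 4 higher and 9 lower, beside 15.0% and 12.2% of all genes. The 4 were Suv39h2, Prmt6, Whsc1 and Kdm4c, and the 9 were Whsc1l1, Setd7, Mll3, Mll2, Setd1b, Kdm6b, Tet3, Dnmt3b and Tet1. The lowest limma adjusted p was 0.0724. The groups did not overlap in 7 genes that were higher and 16 that were lower in libraries labelled Che-1 silencing, against 20.5% and 19.7% of all genes. Without Che-1 silencing replicate 3, 13 rose and 14 fell, where 27.6% and 25.2% of all genes rose and fell. Relative calls given below without that library stand beside these shares of all genes. Without control replicate 1, 0 rose and 0 fell, beside 0.178% and 0.499% of all genes.

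The relative levels of the 3 classes were as follows. The writers had a median over genes of 0.03, 0.14 and -0.12 in libraries labelled Che-1 silencing and 0.19, -0.10 and -0.09 in the control libraries. The erasers had 0.19, 0.22 and -0.11, against 0.06, -0.04 and -0.01 in the control libraries. The DNA methylation genes had -1.16, -0.82 and -0.30 in libraries labelled Che-1 silencing, against 0.11, -0.07 and -0.04 in the control libraries. Only the medians of the DNA methylation genes did not overlap between the groups, with all 3 libraries labelled Che-1 silencing below all 3 control libraries. These medians are descriptions, since genes are not replicates. The median of the writers hides roles that lay apart, which are taken in turn below.

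**Figure D2:**
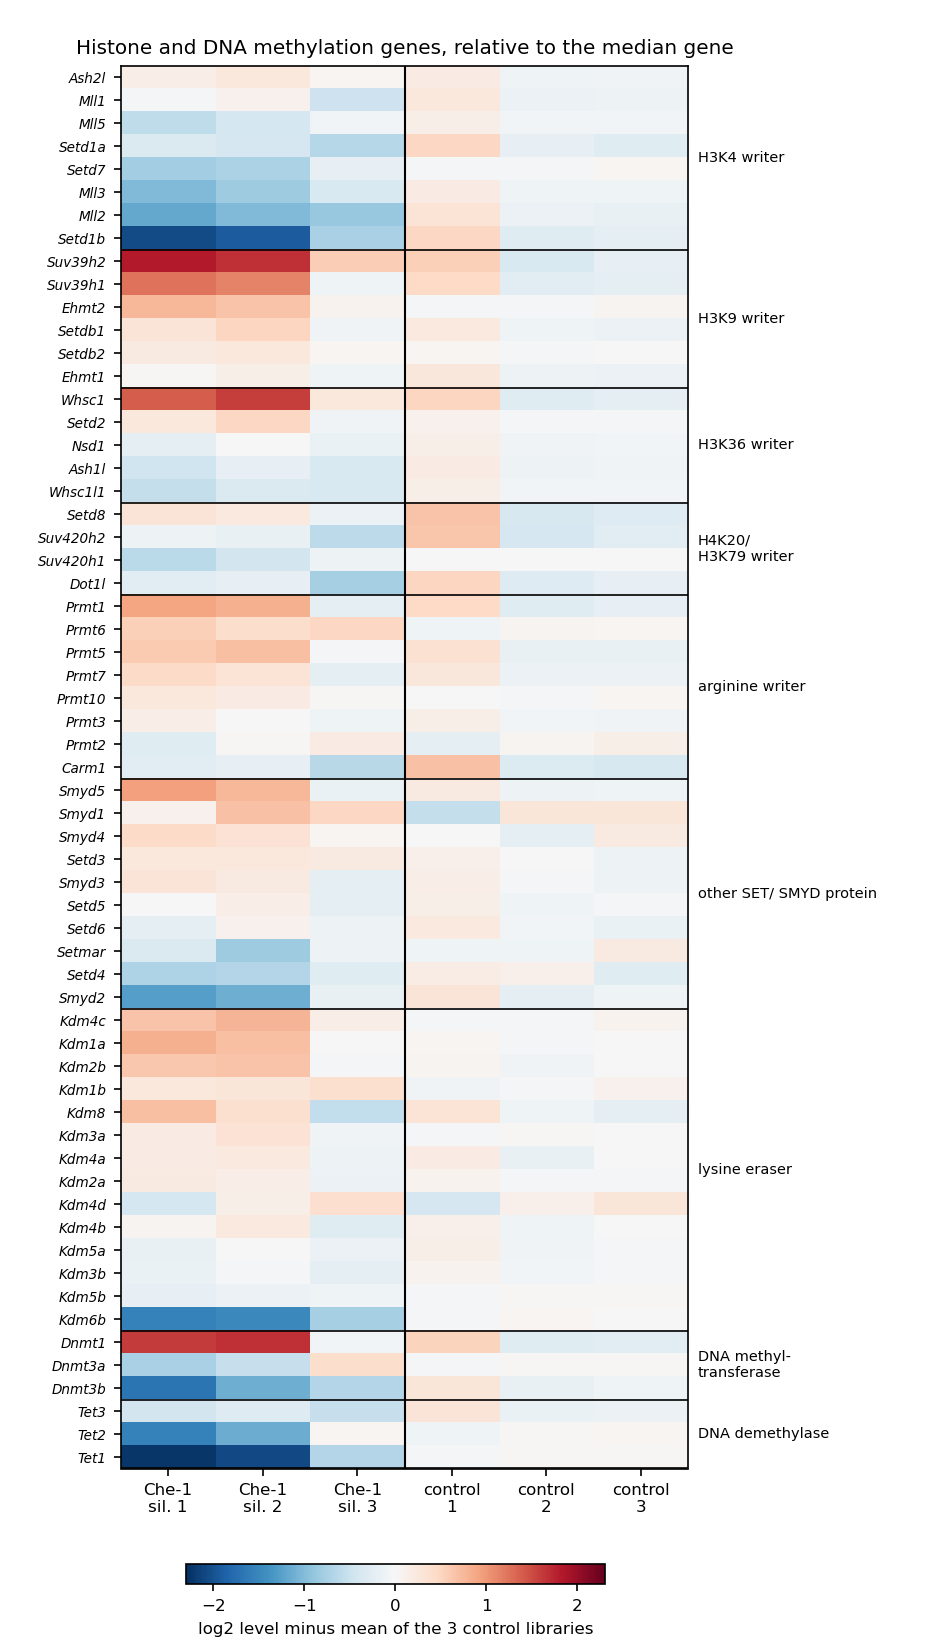
Log2 level of each tested gene relative to the median gene of its library, minus the mean of the 3 control libraries (colour), by library (columns, Che-1 silencing left) and role (rows). Che-1 silencing replicates 1 and 2 hold the extremes at both ends, from -2.24 for Tet1 to 1.82 for Suv39h2, and Che-1 silencing replicate 3 is paler.

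**Figure D3:**
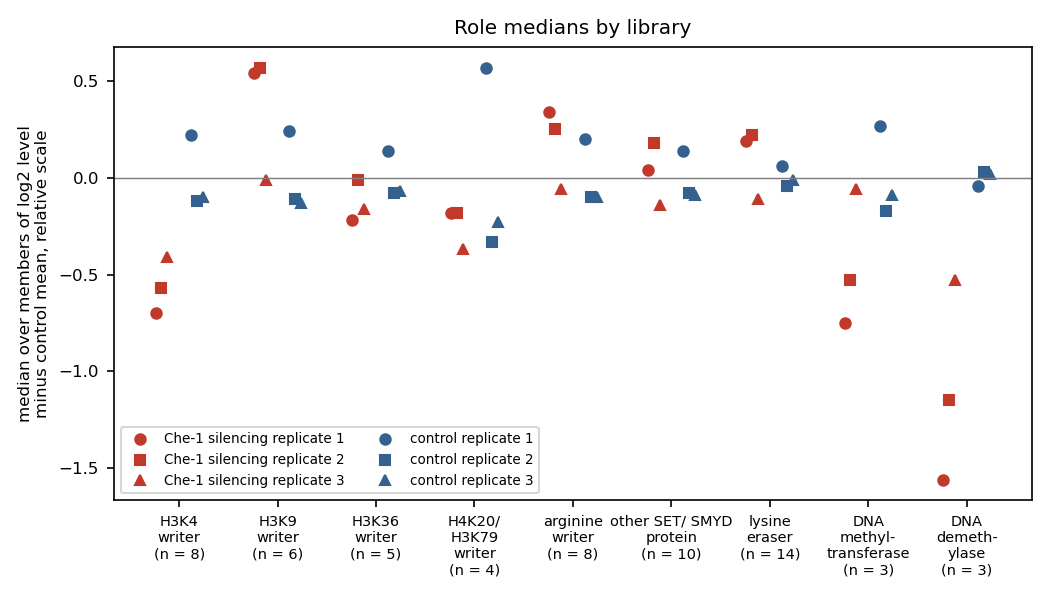
Median over the genes of each role (x axis) of the same relative log2 level (y axis), 1 point per library. The H3K4 writers lie at -0.70, -0.57 and -0.41 and the DNA demethylases at -1.56, -1.15 and -0.53 in libraries labelled Che-1 silencing, below all control libraries, while the H3K9 writers lie at 0.54, 0.57 and -0.01.

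The relative levels of most H3K4 writers were lower in libraries labelled Che-1 silencing, though none passed the limma test with all 6 libraries. DESeq2 called Setd7, Mll3, Mll2 and Setd1b lower, beside 12.2% of all genes. Of 8 tested, Mll1 and Ash2l rose on the spike-in scale, where 66.8% of all genes rose. In 6 of the 8 all 3 libraries labelled Che-1 silencing lay below all 3 control libraries on the relative scale, beside 19.7% of all genes. The median relative difference of the 8 was -0.52, beside 0.01 for all genes. Mll2, a large writer that works at enhancers, had 9541, 17594 and 7956 normalized counts in libraries labelled Che-1 silencing and 12890, 5751 and 6272 in the control libraries. Its counts overlapped between the groups, while its relative levels of -1.17, -1.02 and -0.88 in libraries labelled Che-1 silencing lay below 0.31, -0.14 and -0.17 in the control libraries. The relative difference was -1.02 (SE 0.17, limma adjusted p = 0.0724), and the spike-in difference was 0.51 (SE 0.58, limma adjusted p = 0.426).

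Setd1b, a catalytic subunit of the COMPASS complex that methylates H3K4 at promoters, differed more. It had 681, 1246 and 1160 normalized counts in libraries labelled Che-1 silencing and 1917, 695 and 817 in the control libraries. Control replicate 1 was the highest of the 6, and its spike-in difference was -0.05 (SE 0.57, limma adjusted p = 0.942). On the relative scale it stood at -2.06, -1.92 and -0.75 in libraries labelled Che-1 silencing, below 0.48, -0.27 and -0.20 in the control libraries, a difference of -1.58 (SE 0.39, limma adjusted p = 0.0776). Mll3, the enhancer enzyme most like Mll2, had a relative difference of -0.73 (SE 0.20, limma adjusted p = 0.0836), with levels of -1.01, -0.82 and -0.35 in libraries labelled Che-1 silencing and 0.19, -0.10 and -0.09 in the control libraries. These 3 genes passed on the relative scale without Che-1 silencing replicate 3, at -1.09 for Mll2, -1.99 for Setd1b and -0.91 for Mll3 (limma adjusted p = 0.00523, 0.00244 and 0.00393). In that setting 25.2% of all genes fell.

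The other H3K4 writers had smaller relative differences. Setd7, which puts a single methyl group on H3K4, stood at -0.58, Setd1a, the paralog of Setd1b, at -0.46, and Mll5, a SET protein with little activity of its own, at -0.36 in relative difference, with no overlap between the groups for each. On the relative scale Setd7 and Mll5 fell without Che-1 silencing replicate 3, with differences of -0.77 and -0.50 (limma adjusted p = 0.00199 and 0.0167). Mll1, which activates Hox genes in blood progenitors, had 15411, 27853 and 7705 normalized counts in libraries labelled Che-1 silencing and 9015, 4200 and 4738 in the control libraries. Its spike-in difference was 1.40 (SE 0.58, limma adjusted p = 0.0258) and its relative difference -0.13 (SE 0.20, limma adjusted p = 0.639). Ash2l, a shared subunit that activates the MLL and Setd1 enzymes, rose by 1.69 on the spike-in scale (SE 0.57, limma adjusted p = 0.00758) and stood at 0.15 in relative difference.

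Balances within the H3K4 writers differed as well, as read from normalized counts per kilobase of exon. The ratio of Mll1 to Mll2 was 1.94, 1.91 and 1.17 in libraries labelled Che-1 silencing and 0.842, 0.879 and 0.91 in the control libraries. The ratio of Setd1a to Setd1b was 4.03, 3.53 and 1.30, against 1.21, 1.29 and 1.15. Both ratios were higher in each library labelled Che-1 silencing than in any control library, and closest to the control libraries in replicate 3. The ratio of Mll2 to Kdm5a, a demethylase of the same lysine, was 0.701, 0.69 and 0.838 in libraries labelled Che-1 silencing and 1.59, 1.35 and 1.28 in the control libraries. These pairs were chosen after their values were seen and are not tested. A ratio shows that 2 genes shifted unequally and not which of them moved.

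Of the 10 listed subunits that the H3K4 enzymes share or use for targeting, 9 rose on the spike-in scale, beside 66.8% of all genes. The median relative difference of the 10 was 0.20. Dpy30, a core subunit, had 1503, 2420 and 539 normalized counts in libraries labelled Che-1 silencing and 440, 192 and 207 in the control libraries (spike-in log2 difference 2.27, SE 0.55, limma adjusted p = 4e-04). Men1, which encodes menin, the link of Mll1 to its targets, rose by 2.16 (SE 0.57, limma adjusted p = 9.13e-04), and Psip1, a chromatin-bound partner of menin, by 3.31 (SE 0.58, limma adjusted p = 7.8e-07). Their relative differences of 0.74, 0.63 and 1.78 did not pass (limma adjusted p = 0.136, 0.152 and 0.0804). Wbp7, the paralog of Mll1 that the symbol pattern does not take in, stood at -0.57 in relative difference (SE 0.13, limma adjusted p = 0.0732).

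The H3K9 writers had relative differences above 0. All 6 rose on the spike-in scale, by 1.55 to 2.88, beside 66.8% of all genes, and the median relative difference of the 6 was 0.37. Suv39h2, which trimethylates H3K9 in pericentric heterochromatin, had 711, 1068 and 202 normalized counts in libraries labelled Che-1 silencing and 140, 45.6 and 57.4 in the control libraries. Each library labelled Che-1 silencing was above each control library on either scale, by a wide margin in replicates 1 and 2 and a narrow one in replicate 3. The spike-in difference was 2.88 (SE 0.53, limma adjusted p = 2.48e-06), and the relative difference was 1.35 (SE 0.41, limma adjusted p = 0.091). Suv39h1, its X-linked paralog, had 2819, 4360 and 763 normalized counts in libraries labelled Che-1 silencing and 795, 294 and 339 in the control libraries. Replicate 3 lay within the control range, and the spike-in difference was 2.29 (SE 0.57, limma adjusted p = 5.08e-04), with 0.76 on the relative scale (SE 0.40, limma adjusted p = 0.211).

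Ehmt2, which encodes the euchromatic H3K9 dimethylase G9a, had 7295, 11174 and 3097 normalized counts in libraries labelled Che-1 silencing and 2011, 1245 and 1463 in the control libraries. All 3 lay above the control libraries, with a spike-in difference of 2.03 (SE 0.58, limma adjusted p = 0.00213) and a relative difference of 0.50 (SE 0.20, limma adjusted p = 0.126). The spike-in call of Ehmt2 missed the threshold without control replicate 2 (limma adjusted p = 0.0523). Without Che-1 silencing replicate 3, Suv39h2, Suv39h1 and Ehmt2 rose on the relative scale as well, by 1.75, 1.19 and 0.71 (limma adjusted p = 0.00586, 0.0101 and 0.00257). In that setting 27.6% of all genes rose. Setdb1, which methylates H3K9 at repeats, its relative Setdb2, and Ehmt1, the partner of Ehmt2, rose by 1.77, 1.70 and 1.55 on the spike-in scale, with relative differences of 0.24, 0.17 and 0.02. Per kilobase, the ratio of Suv39h2 to Suv39h1 was 0.29, 0.282 and 0.304 in libraries labelled Che-1 silencing and 0.203, 0.178 and 0.195 in the control libraries, a narrow range in each group.

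Whsc1 stood out among the H3K36 writers. It encodes an H3K36 dimethylase that is overexpressed by a translocation in human myeloma. Whsc1 had 11966, 22631 and 3662 normalized counts in libraries labelled Che-1 silencing and 3095, 1103 and 1274 in the control libraries. Its spike-in difference was 2.61 (SE 0.58, limma adjusted p = 1.33e-04). Its relative levels were 1.40, 1.59 and 0.24 in libraries labelled Che-1 silencing and 0.50, -0.27 and -0.23 in the control libraries, so replicate 3 lay below control replicate 1, and the relative difference of 1.08 did not pass (SE 0.40, limma adjusted p = 0.117). Without Che-1 silencing replicate 3 it was 1.5 (limma adjusted p = 0.00619).

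The remaining H3K36 writers had relative differences near or below 0. Setd2, the sole H3K36 trimethylase of most cells, and Nsd1, a dimethylase, rose on the spike-in scale, by 1.75 (SE 0.58, limma adjusted p = 0.00628) and 1.40 (SE 0.57, limma adjusted p = 0.0253). Both calls ended without control replicate 2. The relative differences of Setd2 and Nsd1 were 0.22 and -0.13. Whsc1l1 and Ash1l, also dimethylases, did not pass on the spike-in scale, at 1.13 and 1.2 (limma adjusted p = 0.0752 and 0.0567). Both passed there without Che-1 silencing replicate 3, at 1.40 and 1.51 (limma adjusted p = 0.0112 and 0.00629), and with DESeq2 (adjusted p = 0.0297 and 0.0238). Their relative differences were -0.40 (SE 0.12, limma adjusted p = 0.0912) and -0.33 (SE 0.14, limma adjusted p = 0.145), each with no overlap between the groups. With Che-1 silencing replicate 3 left out, Setd2 rose on the relative scale by 0.37 and Whsc1l1 fell, at -0.43 (limma adjusted p = 0.0422 and 0.0277). There 27.6% of all genes rose and 25.2% fell. The ratio of Whsc1 to Nsd1 per kilobase was 0.606, 0.597 and 0.26 in libraries labelled Che-1 silencing, against 0.252, 0.171 and 0.175 in the control libraries.

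Writers of H4K20 and H3K79 did not move together. Of the 4, Setd8, which monomethylates H4K20 in mitosis, and Suv420h2, which adds further methyl groups, rose on the spike-in scale, by 1.66 (SE 0.58, limma adjusted p = 0.00938) and 1.23 (SE 0.56, limma adjusted p = 0.0416). The call of Suv420h2 ended without each of control replicates 2 and 3 and Che-1 silencing replicates 1 and 2 (limma adjusted p = 0.282, 0.228, 0.158 and 0.237). Suv420h1, its paralog, and Dot1l, the H3K79 enzyme, stood at 1.14 and 1.13 and did not pass (limma adjusted p = 0.0716 and 0.0717). Suv420h1 had relative levels of -0.62, -0.42 and -0.12 in libraries labelled Che-1 silencing and -0.01, 0.00 and 0.01 in the control libraries. Its relative difference passed without Che-1 silencing replicate 3, at -0.52 (limma adjusted p = 0.00803). Setd8, Suv420h2 and Dot1l were highest in control replicate 1, at 0.66, 0.64 and 0.49, as was Carm1, an arginine writer, at 0.68. The erythroid marker list was highest in the same library, with a median of 1.21, and its part in these values was not tested.

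Arginine methyltransferases had relative differences mostly above 0. Of 8, all but Carm1 rose on the spike-in scale, by 1.52 to 2.03, beside 66.8% of all genes. The median relative difference of the 8 was 0.17. Prmt6, which methylates H3R2, had 954, 1433 and 626 normalized counts in libraries labelled Che-1 silencing and 294, 202 and 220 in the control libraries. Its relative levels of 0.54, 0.40 and 0.48 were alike in the 3 libraries labelled Che-1 silencing, above -0.10, 0.07 and 0.04 in the control libraries. The relative difference was 0.48 (SE 0.13, limma adjusted p = 0.0846), and the spike-in difference was 2.01 (SE 0.54, limma adjusted p = 0.00128). Prmt1, the main asymmetric arginine methylase, and Prmt5, the main symmetric one, rose by 2.03 (SE 0.57, limma adjusted p = 0.00162) and 1.96 (SE 0.57, limma adjusted p = 0.00241) on the spike-in scale. Their relative levels in Che-1 silencing replicates 1, 2 and 3 were 0.91, 0.81 and -0.22 for Prmt1 and 0.60, 0.70 and -0.02 for Prmt5, so replicate 3 overlapped the control libraries. Without it, Prmt6, Prmt1 and Prmt5 rose on the relative scale, by 0.47, 0.86 and 0.65 (limma adjusted p = 0.0223, 0.0265 and 0.0319). In that setting 27.6% of all genes rose. The spike-in calls of Prmt1 and Prmt5 missed the threshold without control replicate 2 (limma adjusted p = 0.0573 and 0.0614), control replicate 3 (0.0518 and 0.0587) and Che-1 silencing replicate 1 (0.0566 and 0.0506), and that of Prmt1 also without Che-1 silencing replicate 2 (0.057).

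Of the other 10 SET and SMYD proteins, many of which methylate targets beside histones, 7 rose on the spike-in scale, where 66.8% of all genes rose. Smyd5, which methylates H4K20 and ribosomal protein, had 1752, 2538 and 554 normalized counts in libraries labelled Che-1 silencing and 502, 245 and 280 in the control libraries (spike-in log2 difference 2.05, SE 0.56, limma adjusted p = 0.00128; relative 0.52, limma adjusted p = 0.251). Smyd2, which methylates p53 and other proteins, had 201, 370 and 294, against 288, 124 and 150 in the control libraries. It overlapped on either scale, with a spike-in difference of 0.68 (limma adjusted p = 0.243) and a relative difference of -0.85 (SE 0.33, limma adjusted p = 0.126). Setd4 stood at -0.56 on the relative scale (limma adjusted p = 0.143), with no overlap. Smyd5 rose on the relative scale by 0.86 without Che-1 silencing replicate 3, and Smyd2 and Setd4 fell, at -1.19 and -0.69 (limma adjusted p = 0.00591, 0.00567 and 0.0325). There 27.6% of all genes rose and 25.2% fell. Setd3, an actin histidine methylase, was the steadiest of the genes that lay higher, at 0.24, 0.25 and 0.20 in libraries labelled Che-1 silencing, against 0.12, -0.01 and -0.11 in the control libraries. Smyd1, a muscle gene, was near the minimum level, at 35.8, 91.2 and 32.1 normalized counts in libraries labelled Che-1 silencing and 10.5, 11.3 and 12.8 in the control libraries.

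Among the erasers, all but Kdm6b of the 14 rose on the spike-in scale, by 1.38 to 2.06, where 66.8% of all genes rose. The median relative difference of the 14 was 0.09, close to 0. The 5 genes grouped here as demethylases of H3K4 (Kdm1a, Kdm1b, Kdm2b, Kdm5a and Kdm5b) all rose. Their median relative difference was 0.30, where the writers of the same lysine had -0.52. Singly they stood at 0.50, 0.30, 0.41, -0.10 and -0.15 in that order, and none passed (lowest limma adjusted p = 0.134). Kdm2a, which is not in the group, stood at 0.08. Kdm5c and Kdm5d, of the same family as Kdm5a and Kdm5b, were removed by the rule and are not in the group either. Kdm5d was among the 4 Y-linked genes past the threshold on the relative scale. It had 0 reads in all libraries labelled Che-1 silencing and 1152 to 2104 in the control libraries. The 6 demethylases of H3K9 (Kdm3a, Kdm3b, Kdm4a, Kdm4b, Kdm4c and Kdm4d) all rose as well, with a median relative difference of 0.07, where the writers of that lysine had 0.37.

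Kdm6b, which removes methyl groups from H3K27, had 839, 1455 and 986 normalized counts in libraries labelled Che-1 silencing and 1156, 746 and 801 in the control libraries. Counts overlapped, and the spike-in difference was 0.27 (SE 0.57, limma adjusted p = 0.678). Its relative levels were -1.55, -1.48 and -0.76 in libraries labelled Che-1 silencing, well below -0.04, 0.05 and -0.01 in the control libraries, which were nearly alike. That difference of -1.26 (SE 0.23) had a limma adjusted p of 0.0724, and without Che-1 silencing replicate 3 it was -1.51 (limma adjusted p = 4.91e-04).

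Kdm1a, which encodes the flavin-dependent demethylase LSD1, had 4089, 6305 and 1593 normalized counts in libraries labelled Che-1 silencing and 1161, 675 and 761 in the control libraries. Its spike-in difference was 2.03 (SE 0.58, limma adjusted p = 0.00199), which missed the threshold without control replicate 2 (limma adjusted p = 0.0509). The relative levels of 0.81, 0.70 and 0.00 put replicate 3 among the control libraries, at 0.04, -0.03 and -0.01. Kdm4c, a demethylase of H3K9 and H3K36, had 4105, 7479 and 1988 normalized counts in libraries labelled Che-1 silencing and 1221, 761 and 912 in the control libraries (spike-in log2 difference 2.06, SE 0.58, limma adjusted p = 0.00186; relative 0.53, SE 0.18, limma adjusted p = 0.108). It did not overlap between the groups on either scale. Kdm1b, the paralog of Kdm1a, was at 0.25, 0.27 and 0.37 in libraries labelled Che-1 silencing and -0.08, -0.02 and 0.10 in the control libraries on the relative scale, again with no overlap. Without Che-1 silencing replicate 3, Kdm1a, Kdm4c and Kdm2b rose on the relative scale, by 0.76, 0.71 and 0.63 (limma adjusted p = 0.00216, 0.00319 and 0.00389). In that setting 27.6% of all genes rose. Kdm4d was near the minimum level, at 27.1, 67.2 and 32.1 normalized counts in libraries labelled Che-1 silencing and 12.9, 10.8 and 13.8 in the control libraries.

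Of the 6 tested DNA methylation genes, Dnmt1 alone had a relative difference above 0 and 5 were below 0, though none passed with all 6 libraries. Dnmt3a rose with Dnmt1 on the spike-in scale, and its relative levels lay on both sides of the control libraries. Dnmt1 had 26564, 46709 and 5748 normalized counts in libraries labelled Che-1 silencing and 6048, 2131 and 2454 in the control libraries. Replicates 1 and 2 were far above every control library, and replicate 3 was just below control replicate 1. Its spike-in difference was 2.61 (SE 0.58, limma adjusted p = 1.2e-04). On the relative scale it stood at 1.60, 1.68 and -0.06 in libraries labelled Che-1 silencing and 0.51, -0.28 and -0.24 in the control libraries, a difference of 1.07 (SE 0.50, limma adjusted p = 0.174), and 1.64 without Che-1 silencing replicate 3 (limma adjusted p = 0.00488).

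Dnmt3a had 2748, 5311 and 4161 normalized counts in libraries labelled Che-1 silencing and 2161, 1373 and 1549 in the control libraries. All 3 lay above the control libraries, with a spike-in difference of 1.24 (SE 0.58, limma adjusted p = 0.05). That call stood at the threshold and ended without any 1 library other than Che-1 silencing replicate 3, at limma adjusted p = 0.061 and 0.0793 without Che-1 silencing replicates 1 and 2 and 0.0533, 0.209 and 0.189 without control replicates 1, 2 and 3. The relative levels of Dnmt3a were -0.75, -0.53 and 0.40 in libraries labelled Che-1 silencing, on both sides of the control libraries at -0.04, 0.02 and 0.03 (difference -0.29, SE 0.29, limma adjusted p = 0.482). Dnmt3b had 131, 322 and 181 normalized counts in libraries labelled Che-1 silencing and 245, 110 and 130 in the control libraries. Its relative levels of -1.68, -1.12 and -0.67 lay below 0.27, -0.17 and -0.09 in the control libraries, a difference of -1.16 (SE 0.30, limma adjusted p = 0.0809), and its spike-in difference was 0.38 (limma adjusted p = 0.525).

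None of the 3 Tet genes passed on the spike-in scale with all 6 libraries, and their relative differences were below 0. Tet1 was scarce, at 90.1, 168 and 182 normalized counts in libraries labelled Che-1 silencing and 201, 128 and 142 in the control libraries, with a spike-in difference of -0.14 (SE 0.53, limma adjusted p = 0.824). On the relative scale it stood at -2.24, -2.08 and -0.68 in libraries labelled Che-1 silencing, below -0.04, 0.03 and 0.02 in the control libraries. The difference of -1.67 (SE 0.43, limma adjusted p = 0.0793) was the lowest of the 61. Tet2, the Tet gene most often mutated in human blood cancers, had 1611, 3560 and 3350 normalized counts in libraries labelled Che-1 silencing and 2171, 1436 and 1632 in the control libraries. Its relative levels of -1.56, -1.15 and 0.04 in libraries labelled Che-1 silencing put replicate 3 among the control libraries, at -0.09, 0.03 and 0.05. Tet2 differed by 0.64 on the spike-in scale (SE 0.58, limma adjusted p = 0.318) and by -0.89 on the relative scale (SE 0.39, limma adjusted p = 0.158).

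Tet3 had 4868, 8811 and 3099 normalized counts in libraries labelled Che-1 silencing and 3868, 1741 and 1963 in the control libraries (spike-in log2 difference 1.11, SE 0.59, limma adjusted p = 0.0801). It passed there without Che-1 silencing replicate 3, at 1.47 (limma adjusted p = 0.00784), without control replicate 1, at 1.46 (limma adjusted p = 0.0484), and with DESeq2, at 1.15 (adjusted p = 0.0444). On the relative scale DESeq2 called Tet3 lower, at -0.46 (adjusted p = 0.0444). Its relative levels of -0.43, -0.30 and -0.53 were close together and lay below 0.29, -0.15 and -0.14 in the control libraries (difference -0.42, SE 0.16, limma adjusted p = 0.12). Without Che-1 silencing replicate 3, Tet1, Tet2, Dnmt3a and Dnmt3b fell on the relative scale, with differences of -2.16, -1.36, -0.64 and -1.40 (limma adjusted p = 6.68e-04, 0.00166, 0.00528 and 0.00654). In that setting 25.2% of all genes fell. The balance of Dnmt1 to the other genes followed the same libraries. Per kilobase, Dnmt1 stood to Dnmt3a as 15.2, 13.8 and 2.17 in libraries labelled Che-1 silencing and as 4.40, 2.44 and 2.49 in the control libraries, and to Tet2 as 24.1, 19.2 and 2.51, against 4.07, 2.17 and 2.20. Replicate 3 was thus within or near the control range for either ratio, where replicates 1 and 2 were several times above it.

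**Figure D4:**
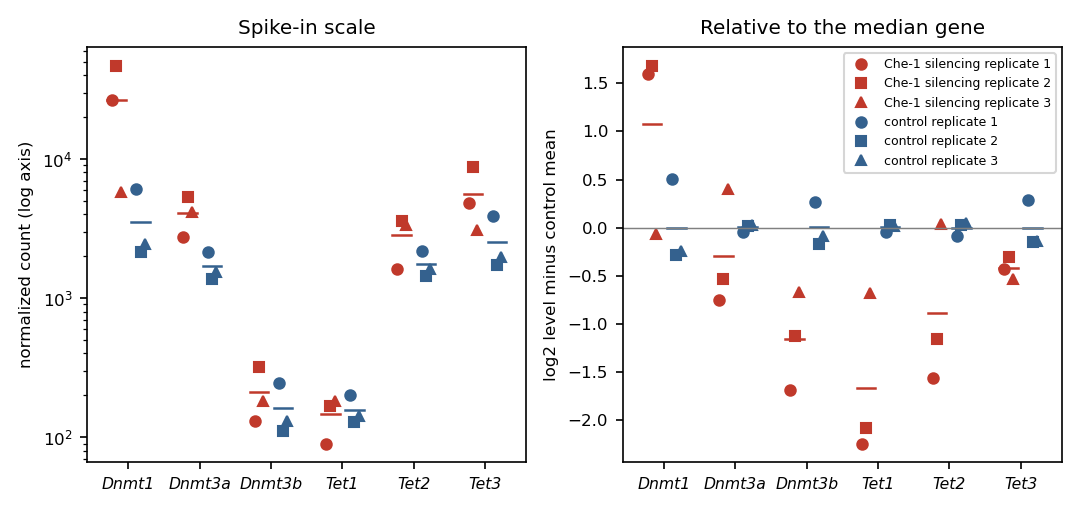
Normalized counts (left, log axis) and log2 level relative to the median gene minus the control mean (right) of the 6 tested DNA methylation genes, 1 point per library, with a dash at the group mean. Dnmt1 is high in Che-1 silencing replicates 1 and 2, at 26564 and 46709 normalized counts, and the relative levels of Tet1 lie at -2.24, -2.08 and -0.68 in libraries labelled Che-1 silencing.

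Markers of dividing cells and of marrow lineages moved with the same libraries. Per spike-in RNA, where 66.8% of all genes rose, all 9 tested proliferation markers rose. They summed to 3175, 2958 and 1318 CPM of recovered gene reads in libraries labelled Che-1 silencing and 1772, 935 and 938 in the control libraries. Their relative median was 1.69, 1.5 and 0.17 in libraries labelled Che-1 silencing and 0.65, -0.33 and -0.36 in the control libraries, an order across the 6 libraries close to that of Dnmt1, Suv39h1 and Whsc1. Neutrophil markers summed to 44.3, 173 and 902 CPM, against 355, 894 and 872 in the control libraries, and 0 of 9 passed on either scale. Erythroid markers summed to 268, 380 and 748 CPM, against 2780, 954 and 963 in the control libraries, with 0 of 7 past the threshold on either scale, and megakaryocyte markers to 99.9, 162 and 958 CPM, against 508, 524 and 540, with 0 of 7. None of the markers tested was at 0 in any library, while the globin genes Hbb-b1 and Hba-a1 were below the minimum mean. The relative medians of the neutrophil and megakaryocyte lists were above the control libraries in Che-1 silencing replicate 3, at 0.58 and 0.73.

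Markers of lymphoid cells and macrophages were present in every library. B cell markers summed to 2401, 2192 and 2109 CPM in libraries labelled Che-1 silencing and 2384, 2127 and 2142 in the control libraries. Plasma cell markers summed to 508, 486 and 953, against 447, 694 and 704 in the control libraries, T cell markers to 553, 516 and 438, against 430, 506 and 503, and macrophage markers to 2036, 2000 and 2674, against 1065, 2197 and 2215. On the spike-in scale 6 of 7 B cell, 4 of 6 plasma cell, 5 of 7 T cell and 6 of 8 macrophage markers rose, beside 66.8% of all genes. On the relative scale none of these markers passed. Single markers of a list differed in direction. The relative levels of the macrophage markers C1qa and Mrc1 were 1.71, 1.46 and 1.41 and -2.87, -1.89 and 0.41 in libraries labelled Che-1 silencing, and those of the T cell markers Lck and Cd8a were 1.62, 1.45 and -0.18 and -1.83, -1.67 and -0.99, where the control libraries lay between -0.90 and 0.45 for these 4 genes. The defining plasma cell marker Sdc1 was present in every library, at 494, 884 and 1054 normalized counts in libraries labelled Che-1 silencing and 328, 361 and 396 in the control libraries. The part of cell makeup in the values of the methylation genes was not tested.

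**Figure D5:**
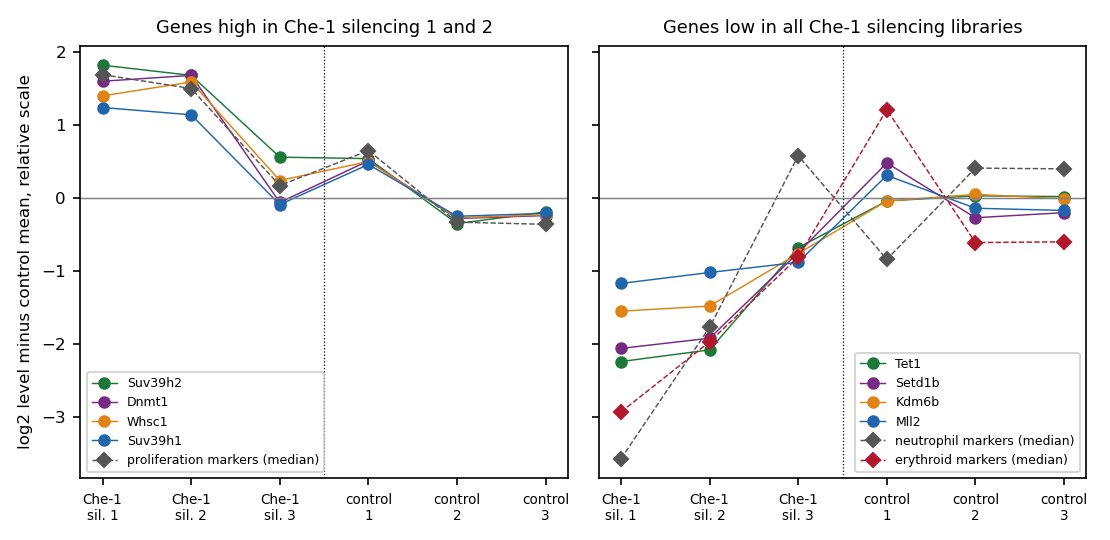
Log2 level relative to the median gene, minus the control mean (y axis), in each of the 6 libraries (x axis) for 4 genes high in Che-1 silencing replicates 1 and 2 (left) and 4 genes low in all 3 libraries labelled Che-1 silencing (right), with the median of marker lists (diamonds, dashed). Lines join values of a gene for legibility, and the genes were chosen for display after their values were seen. The proliferation markers lie at 1.69, 1.5 and 0.17 in libraries labelled Che-1 silencing, and the neutrophil markers at -3.57, -1.77 and 0.58.

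Gene length went with the relative difference as well. Over all tested genes with a length, the median relative difference was 0.24 for 3239 genes under 2 kb of exon and -0.29 for 420 genes of 10 kb or more. Of the 61 genes, 10 had 10 kb or more, with a median of -0.37, among them Mll1, Mll2, Mll3, Tet1 and Tet3. Whsc1, also among the 10, has 15.5 kb and went the other way, at 1.08, while the others of the 10 were negative. The 16 of 6 to 10 kb had -0.32. The 15 of 4 to 6 kb had 0.30 and the 16 of 2 to 4 kb had 0.16, beside -0.10 and 0.07 for all genes of these lengths. The 4 under 2 kb (Setd4, Setd6, Setmar and Smyd2) had -0.49, beside 0.24 for all genes as short. The part of length in the values of single genes was not tested.

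In the authors' deposited table, none of the 62 genes had an adjusted p of at most 0.05, where 13 of 16825 genes (0.0773%) did, and the lowest value there was 0.186, for Suv39h2 among others.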

How the data were processed

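RNA of bone marrow was measured in 6 libraries, 3 per group, grouped by the genotype label. Per the labels' protocols, total RNA was depleted of ribosomal RNA and made into stranded libraries. The submitters' processing notes name mm9 as the build and TopHat, HTSeq, Cufflinks and Cuffdiff as tools, without versions.

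For 92 ERCC spike-ins the authors deposited raw counts, followed by 5 summary rows that name no spike-in and held 0.0434% to 0.221% of reads. They also deposited, per the file headers, a gene table of group means of counts divided by size factors (a signal), with the fold (ratio of the means), its log2 value, a p-value and an adjusted p-value. The planned tests assumed values per library, so whole counts per library were solved for from the deposited means. Size factors were median ratios over the 72 spike-in table rows without a 0, 2 of them summary rows. Every group mean above 0 and below 50 (3330 Che-1 silencing, 4739 control) had exactly 1 solution. Counts came back for 17093 of 17173 genes (99.5%), all 62 reported genes among them. The 80 others, with means of 10713.5 or more, held 16.0% of the summed Che-1 silencing means and 17.0% of the summed control means and were left out.

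limma 3.58.1 (R 4.3.3, eBayes with trend, group term) was run on log2(normalized count + 1), on the spike-in scale and on the relative scale, for genes with a mean of at least 10. Log2 differences on this scale understate the change of low genes. Prior degrees of freedom were infinite on the spike-in scale, so its errors use the trend over genes and not each gene's own spread, and 2.41 on the relative scale. edgeR 4.0.16 and DESeq2 1.42.0 on the recovered counts were alternatives, beside the pseudocount, the filter, the scaling, each library left out and the replicate number as a block. The fits were tested on simulated data. Exon lengths came from GENCODE M21 and had a value for 93.9% of tested genes. Counting error is smallest in the deepest libraries, and genes near the minimum mean are the least precise. No coordinates of the files were used.

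The genes and lists were chosen with earlier results of these data known. Full statistics go to every DNA methylation gene and, in each other role, to the up to 3 genes with the largest relative difference, whichever its sign, and other genes are given by shorter values. The lists beside the 62 genes were shared H3K4 enzyme subunits, related enzymes outside the symbol pattern, readers of methylated histone or DNA, cofactor metabolism, and markers of proliferation and of 7 cell types.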

Additional observations from a re-analysis of the deposited data

How the results depend on the processing

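Of the 61 tested genes, 42 rose on the spike-in scale. With each library left out in turn the count ran from 7 to 52, beside 22.0% to 75.6% of all genes. With limma on each gene's own spread it was 0, and with control replicates 2 and 3 summed into 1 sample it was 9, both chosen after seeing the data. Relative to the median gene, 0 rose and 0 fell. DESeq2 called 4 higher and 9 lower there, and leaving out each library gave 0 to 13 higher and 0 to 14 lower, with the top values without Che-1 silencing replicate 3. The cause was not tested. Among single genes, with a library left out, the spike-in difference of Tet1 was 0.05 without control replicate 1 and 0.18 without Che-1 silencing replicate 1, that of Setd1b was 0.40 and 0.22 in the same order, and the relative difference of Suv420h2 was 0.02 without control replicate 1, each with its sign turned. With each library left out, the lowest values were -0.32, -0.33 and -0.49 for these 3 genes. Of the other pseudocount, filter, edgeR and TMM settings, none changed a count of genes by over 1.5 times.

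Deviations of same-numbered libraries correlated at 0.167, -0.151 and 0.182, where those of other pairs ran from -0.206 to 0.184. These values cannot settle whether the replicate numbers pair the libraries, since some libraries within a group were much alike. With the replicate number as a block, 26 genes rose on the spike-in scale, beside 46.0% of all genes.

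Control replicates 2 and 3 lay closest to each other, with a mean chi-square of 2.13 per gene, where other pairs within a group had 17.5 to 165. Depth limits the genes near the minimum mean, here Smyd1 and Kdm4d.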

Other observations

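Readers of methylated histones and DNA had relative differences mostly above 0. Of 17 listed, 13 rose on the spike-in scale, beside 66.8% of all genes, and the median relative difference was 0.54. By library the relative median was 0.87, 0.87 and -0.02 in libraries labelled Che-1 silencing and 0.12, -0.08 and -0.04 in the control libraries. Uhrf1, which brings Dnmt1 to newly replicated DNA, had 13576, 23942 and 3084 normalized counts in libraries labelled Che-1 silencing and 3182, 767 and 855 in the control libraries (spike-in log2 difference 2.97, SE 0.59, limma adjusted p = 1.29e-05). Replicate 3 lay within the control range, as it did for Dnmt1. Phf19, a reader that joins the H3K27 methylase complex, had 3631, 5433 and 352 normalized counts, against 110, 104 and 118 in control libraries (spike-in log2 difference 4.10, SE 0.54, limma adjusted p = 1.19e-11; relative 2.57, limma adjusted p = 0.0874). Mtf2, its paralog, rose by 3.26 (SE 0.58, limma adjusted p = 1.27e-06). On the relative scale 0 of the 17 passed.

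Of 12 genes that make or recycle the methyl donor and other cofactors, 10 rose on the spike-in scale, beside 66.8% of all genes. The median relative difference of the 12 was 0.27. Ahcy, which clears the S-adenosylhomocysteine left by methylation, had 5177, 7589 and 1657 normalized counts in libraries labelled Che-1 silencing and 1404, 460 and 529 in the control libraries (spike-in log2 difference 2.52, SE 0.58, limma adjusted p = 1.94e-04). Shmt2, which feeds one-carbon units, rose by 2.14 (SE 0.58, limma adjusted p = 0.00127). Mtap, which salvages methylthioadenosine, had a spike-in difference of 0.86 (limma adjusted p = 0.146) and a relative difference of -0.67. On the relative scale 0 of the 12 passed.

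Of 14 tested related enzymes outside the symbol pattern, 8 rose on the spike-in scale, beside 66.8% of all genes. The median relative difference of the 14 was -0.04. Ezh2, the H3K27 methylase, had 5772, 10585 and 1733 normalized counts in libraries labelled Che-1 silencing and 1580, 487 and 570 in the control libraries (spike-in log2 difference 2.64, SE 0.58, limma adjusted p = 1.05e-04; relative 1.11, limma adjusted p = 0.126). Prdm16 had 13.6, 43.2 and 60.4, against 66.7, 64.4 and 61.7 normalized counts in the control libraries (relative -2.47, limma adjusted p = 0.083), and Jhdm1d, a demethylase now named Kdm7a, had a relative difference of -1.14 (limma adjusted p = 0.0882).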
